A study of Homo sapiens with 9 samples.

Results

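The 10 genes described here are the interleukin-1 family members IL1A, IL1B and IL1RN, the CXC chemokines CXCL1, CXCL2, CXCL3 and CXCL8, and 3 cytokines that are often made alongside them, CCL20, IL6 and LIF. They were selected by symbol, 10 of the 25801 genes in the deposited table, and CCL20, IL6 and LIF belong neither to the CXC nor to the interleukin-1 family. The cells were MCF10A, a non-transformed human mammary epithelial line, in which the JUN gene had been knocked out and JUN was returned as the fusion JUN-AID-V5, which carries a degron that responds to auxin, together with TIR1, the plant receptor that sends such a fusion to the proteasome. All 3 groups were these cells. Without 4-thiouridine (no 4sU) they received DMSO, with DMSO and 4sU they received the solvent and a 1 h pulse of 100 µM 4sU, and with IAA and 4sU the same pulse followed 1 h in 100 µM indole-3-acetic acid (IAA, an auxin). The depletion acts on the JUN protein, so an mRNA table cannot check it. The paper obtained its JUN knockout cells as clones grown from single cells. Whether the cells with JUN-AID-V5 were 1 clone is not given in the sources used here.

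In SLAM-Seq, cells take up 4sU and place it in RNA made during the pulse. Iodoacetamide then modifies it so that a sequencer reads C at that T. The conversion rate, the percentage of T positions read as C, therefore rises with the share of a gene's mRNA that was made in the last hour, while the reads of a gene scaled to library size (CPM) measure total mRNA, old and new. Libraries were made from 3′ ends of polyadenylated RNA, and each gene was counted over its 3′ untranslated region (3′ UTR).

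The labels list 9 samples, but the 3 IAA columns held identical values and were counted as 1 library, which left 7 distinct libraries: 3 without 4sU, 3 with DMSO and 4sU and 1 with IAA and 4sU. They held 18997637 to 24014195 reads. The median conversion rate over genes with at least 200 reads on average was 0.0541% to 0.0560% without 4sU and 0.174% to 0.232% in the labelled libraries. All 8 mammary epithelial markers examined were present at 1 CPM or more on average, with a summed level of 1942 to 3552 CPM without 4sU, 2360 to 2620 CPM with DMSO and 4sU and 2688 CPM with IAA. Of 6 leukocyte markers 2 reached 1 CPM and 2 were at 0, with a summed level of 3.31 to 12.3 CPM over the 7 libraries. Of 4 fibroblast markers 2 reached 1 CPM, with sums of 13.2 to 18.6 CPM, led by DCN, and none of 3 endothelial markers did.

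Interleukin-1α (IL1A) and interleukin-1β (IL1B) are activators of a common receptor and start inflammation in epithelia, and IL1RN encodes the antagonist of that receptor. CXCL1, CXCL2, CXCL3 and CXCL8 attract neutrophils through the receptor CXCR2, and CCL20 attracts lymphocytes and dendritic cells through CCR6. IL6 and LIF signal through the shared receptor subunit gp130 and STAT3. The mRNAs of many such cytokines are made in bursts and destroyed quickly, and AU-rich elements, repeats of the pentamer ATTTA in the 3′ UTR, mark them for decay, while the transcription factors NF-kappaB and AP-1, of which JUN is a subunit, are known activators of several of their promoters.

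The 3′ UTRs of 9 of the 10 genes held ATTTA, and they are shown first because the labelling described after them was read from these same stretches. For each gene whose total mRNA fell or whose sequence serves as a contrast, the 30-base window with most pentamers is printed 5′ to 3′ on the strand of the mRNA, with ATTTA in capitals. CXCL2 (chr4:74963303-74963332, minus strand, GRCh37) had 10 pentamers in 719 bases, 5 of them in a single unbroken repeat.
CXCL2: cttctATTTATTTATTTATTTATTTAtttg
CXCL1: aagtcttctATTTATTTATTTAttcattag
IL1B: cgcttccctATTTATTTATTTAtttgtttg
CXCL8: cctATTTAttATTTAtgtATTTATTTAagc
IL6: tatttttaATTTAttaatATTTAaatatgt
IL1A: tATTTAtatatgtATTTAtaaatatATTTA
LIF: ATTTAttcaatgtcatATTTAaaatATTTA
The CXCL1 window lies at chr4:74736390-74736419 (plus strand), that of IL1B at chr2:113587572-113587601 (minus), that of CXCL8 at chr4:74608828-74608857 (plus), that of IL6 at chr7:22771323-22771352 (plus), that of IL1A at chr2:113532001-113532030 (minus) and that of LIF at chr22:30636511-30636540 (minus). All 7 are exonic, within the 3′ UTR of the GENCODE annotation of GRCh37.

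Against 3′ UTRs within 20% of the same length, 0.16% held as many pentamers as the 10 of CXCL2, 0.32% as many as the 6 of IL6, 1.01% as many as the 7 of CXCL3 and 1.38% as many as the 6 of IL1B. The corresponding share was 2.84% for the 9 of CXCL8, 3.63% for the 6 of CXCL1, 9.6% for the 3 of CCL20, 18.1% for the 5 of IL1A and 54.27% for the 7 of LIF, whose 3′ UTR is 3201 bases long. IL1RN had none. The longer core motif TTATTTATT, which overlaps the pentamer, occurred 5 times in CXCL2, 3 times in CXCL1, 2 times each in IL1B and LIF and 1 time each in CXCL3 and CXCL8, and was not found in IL1A, CCL20, IL6 or IL1RN. Matches that overlap each other were counted separately for both motifs, so the counts are not numbers of separate elements. The 2 matches of TTATTTATT in IL1B, for example, overlap within its printed window. These counts describe letters in a sequence and not protein binding, and the search was chosen after the values of the genes had been seen.

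The 9 genes with at least 100 reads on average differed widely in conversion rate. CXCL2 had the highest conversion rate and CXCL1 the lowest, 7.42% ± 0.220 against 0.406% ± 0.108 (SD, n = 3) with DMSO and 4sU, although the 3′ UTRs of this pair are 79.4% identical. Of 7046 genes with at least 200 reads on average, 5 had a higher mean rate than CXCL2, which placed it at the 99.9 percentile. That average is over all 7 libraries, and CXCL2 reached it only through those without 4sU, with 146 to 181 reads when labelled. Genes with fewer reads on average are left out of the ranking, whatever their rate. Every library behind this order is drawn in the plot of conversion rates.

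**Figure D1:**
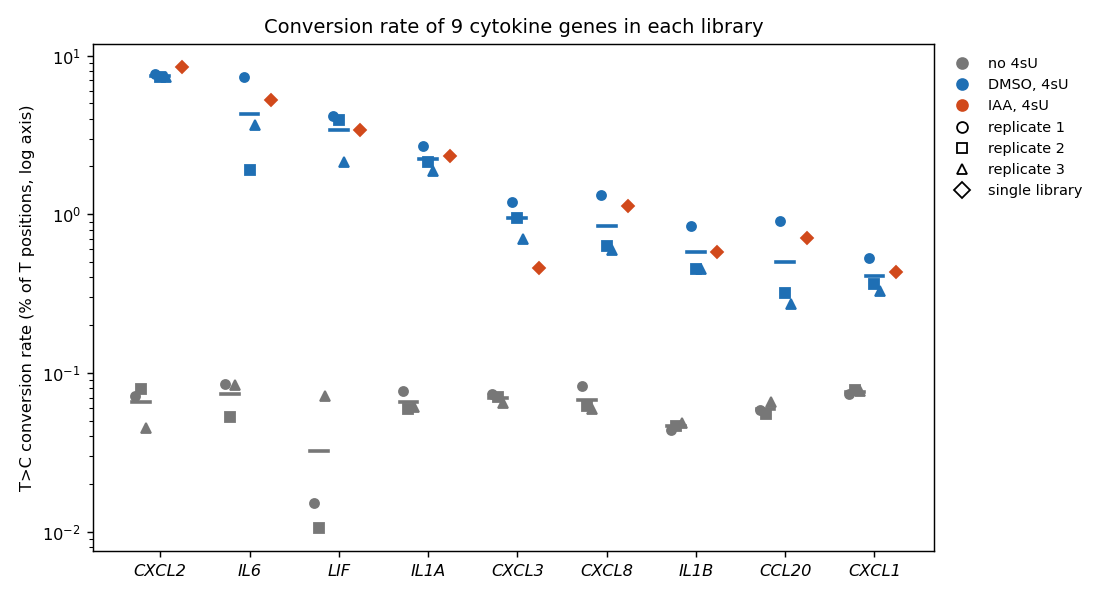
T>C conversion rate of 9 genes (y axis, % of T positions, log scale) in each of the 7 libraries, ordered by the mean with DMSO and 4sU; symbols mark replicates and horizontal lines the means of 3. CXCL2 lies at 7.29% to 8.46% in the 4 labelled libraries, CXCL1 at 0.327% to 0.530%, and each gene without 4sU at 0.0857% or less.

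CXCL2 was converted at 7.68%, 7.30% and 7.29% in replicates 1, 2 and 3 with DMSO and 4sU, from 146 to 181 reads in the labelled libraries. IL6 followed with 7.28%, 1.91% and 3.65%, read from 48 to 85 reads in the labelled libraries. LIF, a gp130 ligand like IL6, had 4.16%, 3.94% and 2.14% from 74 to 111 reads. The 3 values of IL6 spanned a wider range than those of either neighbour, so that IL6 and LIF overlapped. IL1A had 2.68%, 2.14% and 1.88%, the highest rate within the interleukin-1 family, with at least 3608 reads in every library. These 4 genes had mean rates above those of 98.5% or more of the genes ranked. IL6 and LIF, with 128 and 192 reads on average, were set against that ranking without being part of it.

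The other genes formed a lower range, separate from IL1A. CXCL3 was converted at 1.20%, 0.944% and 0.694%, and CXCL8 at 1.33%, 0.629% and 0.592%. IL1B had 0.844%, 0.450% and 0.449%, and its mean of 0.581% was lower than the 2.24% of IL1A, the other agonist of the same receptor, without overlap of the libraries. CCL20 had 0.902%, 0.321% and 0.271%, and CXCL1 had 0.530%, 0.361% and 0.327%. Neighbours in the order CXCL3, CXCL8, IL1B, CCL20 and CXCL1 overlapped in their libraries, whereas CXCL3 and CXCL8 each lay above CXCL1 in every library with DMSO and 4sU without overlap. CXCL1, at the low end, still had a mean rate at the 80.2 percentile of the genes ranked. IL1RN, the antagonist, had only 14 to 33 reads per library and rates of 0%, 0.678% and 0.656%, too few reads to place it.

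Without 4sU the same 9 genes had rates of 0.0106% to 0.0857% in every library, the background of the method. Of the 10 genes, 7 had at least 200 reads on average and entered the test, and all 7 had higher rates with DMSO and 4sU than without (limma on log2(rate + 0.0005) over 7035 genes, Benjamini-Hochberg adjusted p under 0.05), where 62.2% of all genes tested did and 0.0711% were lower. The 2 groups of libraries did not overlap for any of the 7, nor for 71.5% of all genes. Being labelled was therefore not particular to these genes. Their median difference was 2.84 on the log2 scale, against 1.145 over all genes tested. CXCL2 rose by 6.03 (SE 0.19, adjusted p = 1.0e-05, limma), the largest difference of the 7, and IL1A by 4.29 (SE 0.23, adjusted p = 4.83e-05). CXCL3, CXCL8 and IL1B rose by 3.02, 2.84 and 2.66, and CCL20 and CXCL1 by 2.15 and 1.83, with limma adjusted p of at most 0.00666. CXCL2 met the minimum, a mean over all 7 libraries, only through those without 4sU, with 146 to 181 reads in each labelled library. IL6 and LIF fell under the minimum of 200 reads. With a minimum of 100 reads, chosen after the data were seen, they rose by 4.93 and 5.41 (limma adjusted p = 0.000913 and 0.000412). They too met this minimum, a mean over all 7 libraries, only through those without 4sU. In the labelled libraries IL6 had 48 to 85 reads and LIF 74 to 111, so these 2 values are given as a description. All 7 genes tested had their highest labelled rate with DMSO in replicate 1, as had 54.8% of all genes, and replicate 1 also had the highest median rate, 0.232% against 0.176% and 0.174%.

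The number of ATTTA pentamers per kilobase did not follow the order of the rates closely. Over the 9 genes with at least 100 reads, Spearman's rho between pentamers per kilobase and the rate above background was 0.32, a description over genes that share the same libraries. CXCL2 and IL6 had nearly equal densities, 13.9 per kilobase each, and high rates. LIF had the lowest density of the 9, 2.19 per kilobase, with a mean rate of 3.41%, and CXCL3 had 10.4 per kilobase with a mean rate of 0.946%.

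Total mRNA of 4 genes was lower with DMSO and 4sU than without 4sU, and these were the 4 with the highest conversion rates. CXCL2, a neutrophil attractant, changed most. It had 63.6, 81.9 and 61.6 CPM in replicates 1, 2 and 3 without 4sU and 8.08, 7.54 and 8.46 CPM with DMSO and 4sU, so that the groups lay far apart and the labelled libraries held 146 to 181 reads each. The mean was 69.0 ± 11.2 against 8.03 ± 0.465 CPM (SD, n = 3), a 7.94-fold lower value on the scale of log2(CPM + 1) (difference -2.99, SE 0.17, limma adjusted p = 0.000178).

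LIF had 13.8, 16.3 and 17.002 CPM without 4sU and 3.48, 4.58 and 5.53 CPM with it. Its groups did not overlap, and it was lower by -1.65 on the log2 scale (SE 0.21, limma adjusted p = 0.0050). IL6 had 12.3, 10.6 and 7.74 CPM without 4sU against 2.35, 3.54 and 4.18 CPM with it. These too did not overlap, although IL6 was read at low depth, and the difference was -1.40 (SE 0.23, limma adjusted p = 0.0157). IL1A, the interleukin-1 that acts without processing by caspase-1, had 489, 405 and 364 CPM without 4sU and 169, 264 and 237 CPM with it. The difference was -0.96 (SE 0.19, limma adjusted p = 0.0408), and IL1A was the weakest of the 4 calls. It was lost without TMM scaling (adjusted p = 0.0721), without the filter on low CPM (adjusted p = 0.0735) and with the replicate number as a block (adjusted p = 0.0553).

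The 4 calls compare with 1.69% of 11184 genes that were lower at this threshold, and no gene was higher (0.0%, with an unadjusted p below 0.05 for 283 genes, DESeq2 called 4 higher and edgeR 0). The median difference over the 10 genes was -0.65 against 0.03 over all genes tested. The groups did not overlap in CPM for the same 4 genes, against 8.99% of all genes, and after TMM scaling they did not overlap for IL1B either (5 genes, against 10.8%). Without replicate 2, or without replicate 3, CXCL2 was the only call among the 10, whereas without replicate 1 CXCL3 and CXCL8 were added to the 4.

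**Figure D2:**
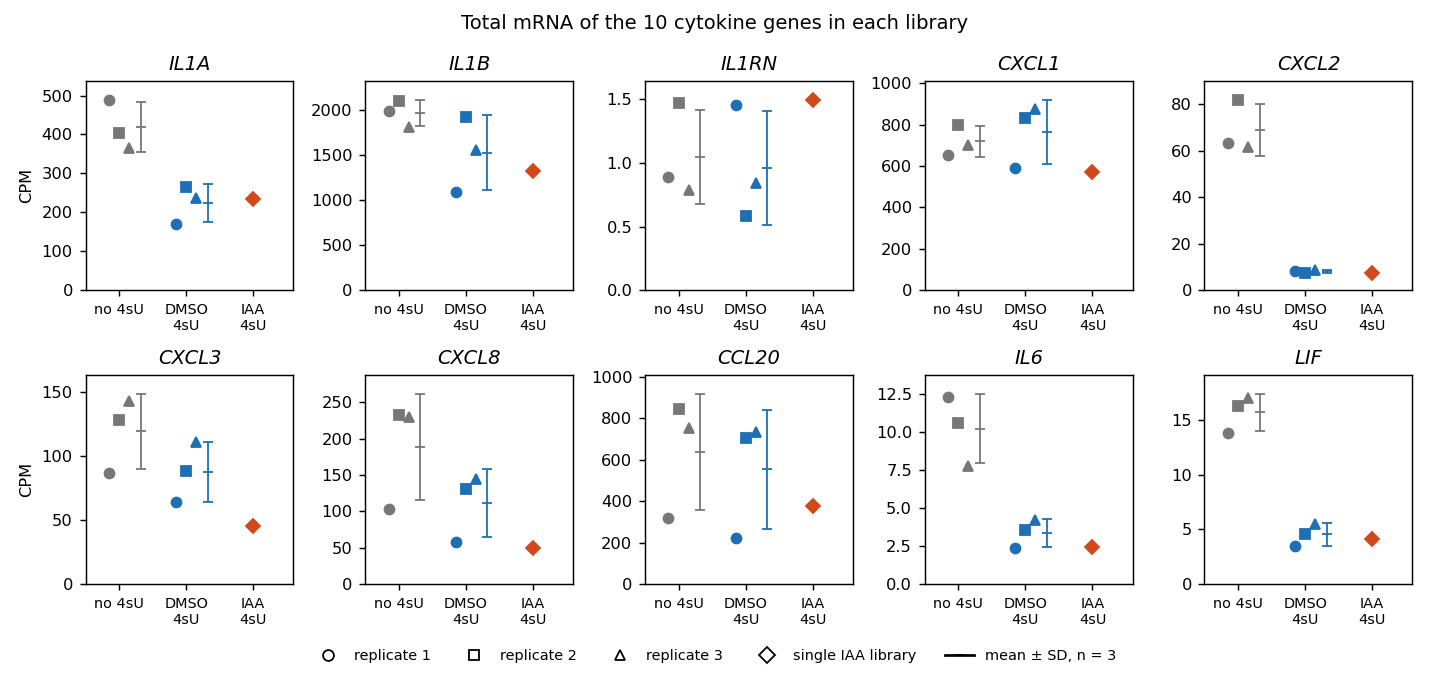
Total mRNA of the 10 genes in CPM (y axis from 0, own scale per gene) in each of the 7 libraries, with the mean ± SD of the groups of 3. CXCL2 lies at 61.6 to 81.9 CPM without 4sU and at 7.54 to 8.46 CPM with DMSO and 4sU, while CXCL1 and CCL20 overlap between these groups.

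The other 6 genes did not pass the test. CXCL8 had 104, 232 and 229 CPM without 4sU and 58.1, 131 and 145 CPM with it. Replicate 1 was lowest in both groups, and each number was lower with 4sU, by -0.79, -0.90 and -0.76 on the log2 scale. Without a block the difference was -0.81 (SE 0.41, limma adjusted p = 0.563), and with the replicate number as a block the same difference passed (limma adjusted p = 0.0212). Total mRNA of same-numbered libraries deviated together, with correlations of 0.41, 0.33 and 0.49 over 7046 genes.

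CXCL3 had 86.2, 128 and 143 CPM without 4sU against 63.8, 88.4 and 110 CPM with it, and IL1B had 1992, 2103 and 1815 against 1095, 1930 and 1557 CPM. CXCL3 and IL1B differed by -0.49 (SE 0.26) and -0.45 (SE 0.22). CCL20 varied widely between replicates, with 320, 844 and 752 CPM without 4sU and 223, 704 and 736 CPM with it. CXCL1 had 656, 799 and 703 against 588, 832 and 875 CPM, a difference of 0.03 (SE 0.20), and IL1RN had 0.890, 1.47 and 0.790 against 1.46, 0.583 and 0.846 CPM. In all, 8 of the 10 genes were lower with 4sU at each of the 3 replicate numbers, the exceptions being CXCL1 and IL1RN, against 19.1% of all genes. Replicate 1 had the lowest CPM in both groups for 5 of the 10, namely CXCL1, CXCL3, CXCL8, CCL20 and LIF, against 19.4% of all genes.

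Labelling and total mRNA are set side by side in the plot of rate and change. The order of the genes was similar in both, but both come from the same 6 libraries, so they are not independent. CXCL2 had 7.36% above background and the largest fall in total mRNA on the log2 scale among the 10. CXCL1 had 0.330% above background and a difference in total mRNA of 0.03. Whether heavily converted reads were counted less completely, or fewer such molecules were present, was not tested. In such libraries fewer transcripts per cell and fewer cells with the transcript cannot be told apart.

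**Figure D3:**
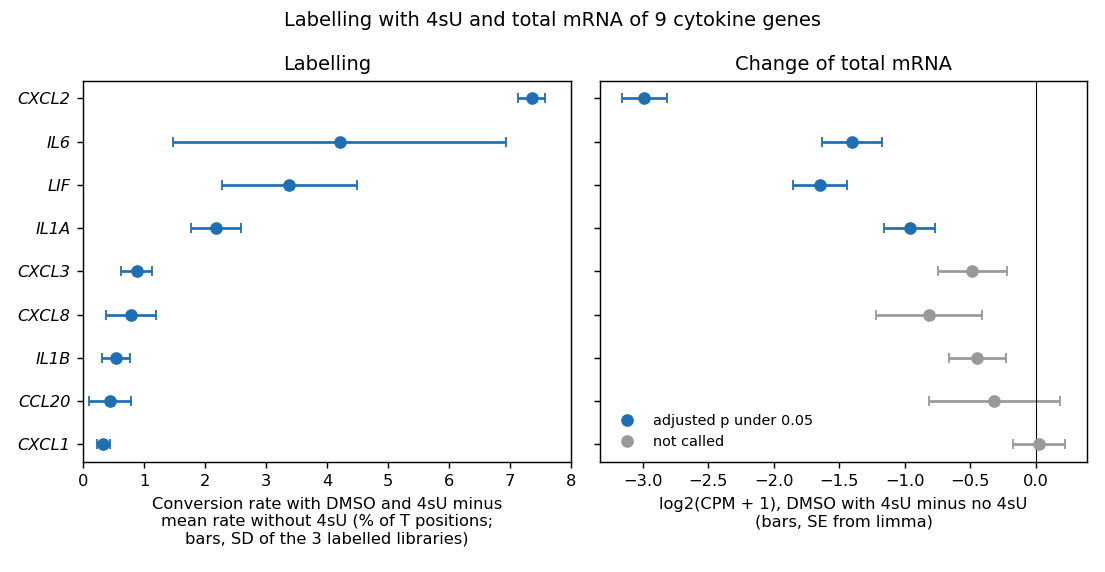
Left, conversion rate with DMSO and 4sU minus the mean rate without 4sU (% of T positions, mean of 3 with the SD of the labelled libraries); right, difference of total mRNA with minus without 4sU (log2(CPM + 1), with SE). The 4 genes called lower, in blue on the right, are CXCL2, IL6, LIF and IL1A, from -2.99 to -0.96, and they head the order on the left.

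CXCL1 and CXCL2 share an identical run of 77 bases in their 3′ UTRs, and 0.43% of the 75-base words of CXCL1, the length of a read, were found unchanged in CXCL2. The other pairs of CXC chemokines shared runs of at most 21 bases. Reads from the shared run, a small part of either 3′ UTR, could be assigned to either gene. Where the reads fell along the 3′ UTRs, and matches that allow mismatches, were not examined.

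Depletion of JUN was examined by comparing the IAA library with the 3 libraries of DMSO and 4sU, to ask whether these genes respond within the first hours. None of the 10 genes passed the test in total mRNA, and none of all 11184 genes did (0.0% in either direction by limma, with an unadjusted p below 0.05 for 65 genes higher and 34 lower, 0 calls by edgeR and 1 by DESeq2). With 1 IAA library the test assumes that this library varies like the other groups, and it compares that library rather than the condition.

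The 4 CXC chemokines had their lowest labelled level with IAA. CXCL3 had 45.0 CPM with IAA against 63.8, 88.4 and 110 CPM with DMSO, a difference of -0.99 (SE 0.37, unadjusted p = 0.0253 and adjusted p = 0.9998 by limma). CXCL8 had 49.7 CPM against 58.1, 131 and 145 CPM, a difference of -1.12 (SE 0.58). Both lay nearest to DMSO replicate 1, from which CXCL3 differed by -0.57 and CXCL8 by -0.30, whereas CXCL8 differed from replicates 2 and 3 by -1.45 and -1.61. CXCL1 had 569 CPM against 588, 832 and 875 CPM, and CXCL2 had 7.28 CPM against 7.54 to 8.46 CPM. Against all 3 DMSO libraries, IAA was lower in CPM in these 4 of the 10 genes and in 11.5% of all genes. After TMM scaling it was lower in 5, with IL6 added, against 20.5% of all genes.

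The remaining genes lay within or close to the DMSO range. IL1A had 235 CPM with IAA, a difference of 0.02 (SE 0.27), and IL1B had 1323 CPM, a difference of -0.25 (SE 0.31). CCL20 had 376 CPM, above replicate 1 and below replicates 2 and 3. IL6 had 2.39 CPM and LIF 4.14 CPM, with differences of -0.39 (SE 0.32) and -0.15 (SE 0.29). IL1RN had 1.496 CPM, above the 3 DMSO libraries in CPM (as in 32.3% of all genes) and within their range after TMM scaling. The median difference over the 10 genes was -0.32, against -0.0019 over all genes. Over 7046 genes the IAA library correlated at 0.991 with DMSO replicate 1, 0.964 with replicate 2 and 0.977 with replicate 3 in log2 CPM, and the part of this closeness to replicate 1 in the values of these genes was not tested.

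**Figure D4:**
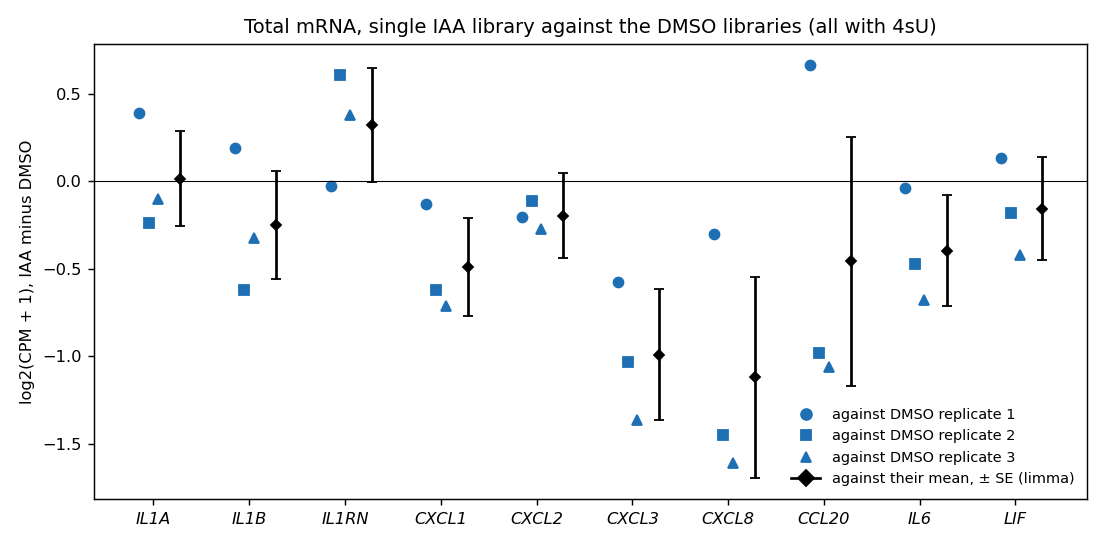
Difference in total mRNA of the IAA library from each DMSO library with 4sU (blue symbols, log2(CPM + 1) with TMM) and from their mean (black, ± SE from limma) for the 10 genes. CXCL8 lies at -0.30, -1.45 and -1.61 against replicates 1, 2 and 3, and CCL20 on both sides of 0.

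New mRNA in the IAA library was compared by the conversion rate, after each library had been centred on its median. None of the 7 genes tested passed, and neither did any of 7041 genes (0.0% in either direction by limma, with an unadjusted p below 0.05 for 136 genes higher and 181 lower). CXCL3 was converted at 0.460% with IAA against 1.20%, 0.944% and 0.694% with DMSO, below all 3, as were 17.8% of all genes. The difference was -1.05 (SE 0.41, unadjusted p = 0.0546 and adjusted p = 0.995 by limma). For the product of rate and CPM, chosen after the data were seen as a measure of the amount of new mRNA, CXCL3 differed by -2.12 (limma adjusted p = 0.112).

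CXCL2 was converted at 8.46% with IAA, above the 3 DMSO libraries, as were 29.4% of all genes, and after centring it differed by 0.07 (SE 0.20). The libraries compared held 146 to 181 reads of CXCL2 each, under the minimum that it met on average over all 7. CXCL8 and CCL20 had 1.12% and 0.711%, between replicate 1 and the other two, with differences of 0.36 (SE 0.49) and 0.54 (SE 0.64). IL1A, IL1B and CXCL1 had 2.33%, 0.580% and 0.431%, and differed by -0.04 (SE 0.27), -0.06 (SE 0.44) and -0.01 (SE 0.40). IL6 and LIF, not tested for their few reads, had 5.26% and 3.39%, within their DMSO ranges. With 1 IAA library, differences larger than these errors also went undetected, such as the -1.05 of CXCL3 (SE 0.41).

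The promoters were searched because JUN is a subunit of AP-1. In RefSeq windows from 250 bases before to 50 bases after the gene start (GRCh38.p14), which were at hand for 9 of the 10 genes and not for LIF, the AP-1 motif TGANTCA was found on either strand in CXCL8, IL1A and IL1RN, 3 of 9, against 9.37% of all genes. The NF-kappaB motif GGNNTTTCC was found in 7 of 9, all but IL1A and IL1B, against 7.61% of all genes, and the TEAD motif CATTCC in CCL20, 1 of 9, against 16.7% of all genes. The 30-base stretches around motifs are printed for the CXC chemokines, which resemble each other, and for IL1A, on the strand of the gene with the motif in capitals.
CXCL1, NF-kappaB: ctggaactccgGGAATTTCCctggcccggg
CXCL2, NF-kappaB: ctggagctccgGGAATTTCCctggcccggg
CXCL3, NF-kappaB: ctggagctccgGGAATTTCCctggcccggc
CXCL8, NF-kappaB: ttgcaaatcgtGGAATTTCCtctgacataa
CXCL8, AP-1: taggaagtgtgaTGACTCAggtttgccctg
IL1A, AP-1: ggcgaagaagacTGACTCAggcttaagctg
They lie at chr4:73869304-73869333 (plus strand), chr4:74099254-74099283 (minus), chr4:74038749-74038778 (minus), chr4:73740467-73740496 (plus), chr4:73740420-73740449 (plus) and chr2:112784488-112784517 (minus). Counted from the gene start, the 4 NF-kappaB matches begin at -78, -77, -78 and -91. CXCL1, CXCL2 and CXCL3 carry a further match at -53 and no AP-1 letters in this window. A match is a description of letters and says nothing about binding in these cells.

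Other genes of the same pathways were counted from lists. Of 34 other ligands 13 were tested in total mRNA with against without 4sU, and none passed, with a median of -0.11. In the conversion rate 3 were tested, and IL24 and CSF3 were higher with 4sU. CSF3, the granulocyte growth factor, had 2.31% ± 0.852 and IL24, an interleukin-10 family cytokine, 0.726% ± 0.152 with DMSO and 4sU (SD, n = 3). Of 31 receptors and signalling genes 24 were tested in total mRNA, and SOCS3, the feedback inhibitor that STAT3 induces downstream of IL6 and LIF, was lower with 4sU, at 11.3 ± 1.61 against 3.004 ± 1.501 CPM (difference -1.73, SE 0.30, limma adjusted p = 0.0202). Its conversion rate, 6.60% ± 1.32, lay between the means of CXCL2 and IL6, but it had too few reads to be tested. Of the 13 receptors and signalling genes tested in the conversion rate, 8 rose, a share close to the 62.2% of all genes tested. IL6R had 1.67% ± 1.49 and MYD88, the adaptor of the interleukin-1 receptor, 0.375% ± 0.0940. The 6 others, IRAK1, TOLLIP, MAP3K7, TAB2, JAK1 and STAT3, had means of 0.162% to 0.243%, below every one of the 9 cytokine genes. Of 12 genes for the processing and release of interleukin-1, 9 were tested in total mRNA and none passed, and in the conversion rate 4 of 6 rose, again beside 62.2% of all genes, namely CASP4, CAPN1, CAPN2 and S100A13, with means of 0.103% to 0.233%. No gene of the 3 lists passed with IAA against DMSO.

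Across the 7 libraries, the genes whose total mRNA was most like the mean standardized profile of the 10 were OBI1, ZMYND8, STIM2, SRSF8 and XRRA1, with Pearson's r of 0.990, 0.989, 0.983, 0.981 and 0.975 among 7039 genes ranked. The 10 genes themselves followed that mean unequally, with r of -0.17 for IL1RN, 0.67 for CXCL1, 0.73 for CCL20 and 0.86 to 0.94 for the others. OBI1 had a mean of 20.7 CPM without 4sU, 13.8 CPM with DMSO and 4sU and 11.7 CPM with IAA. This is a likeness over 7 points that share their groups and says nothing of shared function.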

How the data were processed

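The authors ran the nf-core SLAM-Seq pipeline on 75-base single-end reads and deposited, per 3′ interval of a RefSeq transcript, a conversion rate (a fraction of T positions read as C, shown here in percent, without its coverage) and a library-scaled signal labelled CPM; build hg19 is named in the submitters' processing notes. Nonzero CPM values were whole multiples of 1 read in 100% of cases (tolerance 0.01), which gave the reads and depths. Of 56868 rows, 97.7% matched a symbol. Rows of a gene with the same reads were used once (16 rows for these 10 genes became 10), otherwise reads were summed and rates averaged. Genes and lists were chosen with earlier results of these data known.

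Total mRNA was tested with limma 3.58.1 (R 4.3.3, trended and robust) on log2(CPM + 1) with TMM sizes, for genes of at least 1 CPM in 3 libraries. Rates were tested on log2(rate + 0.0005), for genes of at least 200 reads on average that were nonzero in 3 or more of the 6 libraries (2 of 4 with IAA). The p-values were adjusted over all genes tested. Alternatives included edgeR 4.0.16 and DESeq2 1.42.0 on recovered reads. The study's methods call its replicates biological. The labels do not say which cultures the libraries came from. Same-numbered libraries deviated together in total mRNA (0.41, 0.33 and 0.49) and not in the rates (0.0013, -0.0124 and 0.0053). All 10 genes were given in every library; from the other lists, up to 8 genes per list that passed a test. 3′ UTRs came from GENCODE (GRCh37) and were within 10 bases of the deposited interval length. No coverage per T was used, so rates carry no counting interval.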

Additional observations from a re-analysis of the deposited data

How the results depend on the processing

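Of the values for single genes under all alternatives, 331 kept their direction and side of the threshold. A further 12 changed sign without being called in either setting (1 in total mRNA with 4sU, and with IAA 3 in total mRNA and 8 in the rates). In total mRNA with 4sU, 9 lost the call and 3 gained it, and 0 called values reversed. CXCL2 was called in every setting. For total mRNA with 4sU, DESeq2 called 368 genes against 189, of which 189 were shared, and leaving out 1 replicate gave 21 (without replicate 2 or 3) to 433 genes (without replicate 1) and 1 to 6 of the 10 cytokine genes. The replicate block gave 197 genes, 168 of them shared, and 4 of the 10 with CXCL8 in place of IL1A. For the conversion rate with 4sU, against 4382 genes, leaving out 1 replicate gave 2659 (without replicate 1) to 3121 genes, with 7 of 7 cytokine genes called each time, and the replicate block gave 3963 genes, although the numbers do not pair the rates. For IAA against DMSO, total mRNA gave 1 gene without the filter and 1 gene with DESeq2, and the rates gave 1 gene with at least 100 reads and 8 for the product of rate and CPM, both added after the data were seen. None was among the 10. The cause of these differences was not tested. No paired analysis was possible because the IAA library is 1 and its replicate number is not known, so IAA effects cannot be told from that of 1 library. IL6, LIF and IL1RN are limited by reads, and so are the labelled rates of CXCL2, with 146 to 181 reads per library.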
